A study of Mus musculus with 40 samples.

Results

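The 13 mRNAs encoded by mitochondrial DNA were followed in mouse liver, as all rows of the count table whose symbol starts with mt-, which were 13 of 32544 rows. Livers came from male C57BL/6 mice kept germ-free, that is without any gut microbes, and bulk RNA was sequenced at postnatal day 64, after 6 weeks of dosing. The dose was delta-valerobetaine (VB), a trimethylated metabolite of gut bacteria, or vehicle, and the mice ate a Western or a control diet. This gave 4 groups of 5 mice: Western diet VB, Western diet vehicle, control diet VB and control diet vehicle. All 20 mice were germ-free, so every group lacks the bacteria that make VB. The 2 lane files of each mouse hold 1 library and were summed to 1 replicate. In 1 of the 40 lane files, of Western diet VB mouse 1, the treatment label says vehicle while the title says VB, and the mouse was kept as VB. Nothing in the labels says that the mice came from separate cages, litters or cohorts.

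Mitochondrial DNA is a small circle that is transcribed as long precursors from its heavy and light strands, and the precursors are cut into single mRNAs, rRNAs and tRNAs. Its proteins are membrane subunits of the respiratory chain: the mt-Nd proteins belong to complex I (NADH dehydrogenase), mt-Cytb to complex III, the mt-Co proteins to complex IV (cytochrome c oxidase) and the mt-Atp proteins to complex V (ATP synthase). All other subunits, and the proteins that copy, transcribe, process and translate mitochondrial DNA, come from nuclear genes. Liver is rich in mitochondria, and the mitochondrial mRNAs are among its abundant transcripts. Annotation lists 13 mRNAs, 2 rRNAs and 22 tRNAs on this genome. The 13 mRNAs each had a row, and the rRNAs and tRNAs are not analysed here.

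Parts of these mRNAs have near-identical copies in the nuclear genome, and reads from such stretches can be counted in either row. In GENCODE transcripts on GRCm38, 7 annotated pseudogenes matched a mitochondrial mRNA at 99% identity or more over at least 100 bases, and all lay on the minus strand of chromosome 1 between 24611535 and 24616197. The 2 that held the most counts each differed from their mitochondrial gene at 1 base. The stretches around these bases are shown because no other base in the aligned part separates a mitochondrial read from a copy read. Capitals mark the base that differs, written as A1066T for mt-Co1 and T3C for mt-Nd3, with the mitochondrial base first and positions counted from 1 at the first base of the mitochondrial gene.
mt-Co1 (chrM:6390-6413, plus strand): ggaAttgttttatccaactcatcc
Gm29216 (chr1:24616165-24616188, minus strand): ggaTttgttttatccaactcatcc
mt-Nd3 (chrM:9459-9481, plus strand): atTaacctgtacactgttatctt
Gm28438 (chr1:24613097-24613119, minus strand): atCaacctgtacactgttatctt

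Mitochondrial mRNAs made up 2.68% ± 0.43 of all counts in VB mice on the Western diet, against 2.97% ± 0.93 in vehicle mice on that diet (SD, n = 5 each). They made up 2.41% ± 0.26 in VB mice on the control diet, against 2.37% ± 0.22 in vehicle mice. By mouse, the shares were 2.58, 2.53, 2.80, 3.33 and 2.17% in Western diet VB mice, against 2.61, 2.68, 2.60, 4.62 and 2.34% in Western diet vehicle mice. In control diet VB mice they were 2.47, 2.42, 1.99, 2.71 and 2.45%, against 2.70, 2.37, 2.29, 2.40 and 2.10% in control diet vehicle mice. All groups overlapped, and a single mouse, Western diet vehicle mouse 4, stood well above the other 19. Without it, Western diet vehicle mice averaged 2.56% ± 0.15 (SD, n = 4). With the near-identical copy rows added, the shares of all mice were 2.92% ± 0.48 in Western diet VB mice, against 3.23% ± 1.03 in Western diet vehicle mice. They were 2.61% ± 0.29 in control diet VB mice, against 2.61% ± 0.25 in control diet vehicle mice (SD, n = 5 each). In bulk tissue, fewer cells of a type and less RNA per cell cannot be told apart, so these shares describe the RNA of whole liver.

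**Figure D1:**
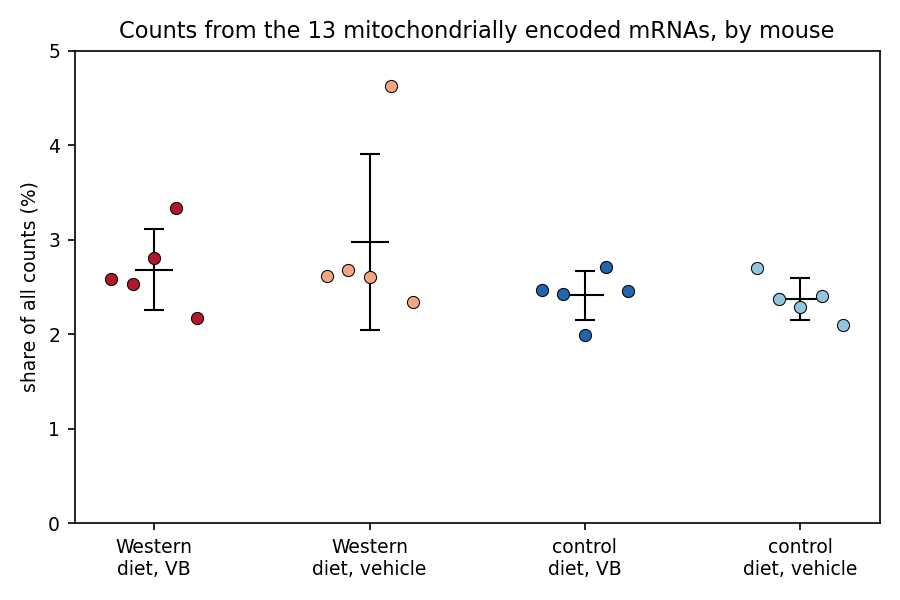
Share of all counts from the 13 mitochondrial mRNAs (percent, vertical axis) in each mouse of the 4 groups. Points are mice, and bars show the mean and SD of 5 mice. Western diet vehicle mouse 4 sits at 4.62%, while the other 19 mice lie between 1.99 and 3.33%.

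A share depends on what else fills the library. Transcripts of the major urinary proteins (Mup), which liver makes in bulk, took 15.8 to 25.2% of counts in Western diet VB mice, against 9.53 to 12.7% in Western diet vehicle mice. They took 6.25 to 9.82% in control diet VB mice, against 8.87 to 13.7% in control diet vehicle mice. With the Mup rows left out of the total, the mitochondrial share was 2.88 to 3.98% in Western diet VB mice, against 2.61 to 5.29% in Western diet vehicle mice. It was 2.15 to 2.95% in control diet VB mice, against 2.38 to 3.13% in control diet vehicle mice. On that base the ranges of VB mice on the 2 diets overlapped only at their edge. The comparisons of single mRNAs below use libraries scaled by TMM factors, which reduce the weight of such dominant transcripts, and their levels are given as CPM, each mouse's counts brought to the same library total after scaling.

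Within the mitochondrial counts, complex IV mRNAs took a median of 47.6% over the 20 mice, complex I mRNAs 24.5%, complex V mRNAs 14.5% and complex III mRNA, mt-Cytb alone, 13.2%. Levels per kilobase of gene, in CPM on unscaled totals, ran over more than an order of magnitude, although all but mt-Nd6 derive from the same strand's precursor. mt-Co3, a core subunit of cytochrome c oxidase (chrM 8607 to 9390), led with 7462 ± 1564 CPM per kilobase (SD, n = 20 mice). mt-Atp6, the proton channel subunit of ATP synthase (7927 to 8607), followed with 5538 ± 1104. mt-Co3 lay above mt-Atp6 in 20 of 20 mice, and mt-Atp6 above the next mRNA in 20 of 20.

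A middle tier held mt-Co2, which carries the copper site that takes electrons from cytochrome c (7013 to 7696), mt-Cytb (14145 to 15288) and mt-Co1, the catalytic subunit of cytochrome c oxidase (5328 to 6872). Their medians were 2886, 2880 and 2852 CPM per kilobase. Their order was not stable between mice: mt-Co2 exceeded mt-Cytb in 11 of 20 mice, and mt-Cytb exceeded mt-Co1 in 14 of 20. mt-Nd1, which lies at the joint of the complex I arms (2751 to 3707), came next with a median of 1603. Below it came 2 antiporter-like subunits of complex I, mt-Nd2 (3914 to 4951) with 1249 and mt-Nd4 (10167 to 11544) with 1210, and mt-Nd2 was higher than mt-Nd4 in 18 of 20 mice.

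The lower levels were those of mt-Nd5, the third antiporter-like subunit (11742 to 13565), with a median of 636, and mt-Nd6, the only mRNA of the light strand (13552 to 14070), with 568. mt-Nd5 exceeded mt-Nd6 in 18 of 20 mice. Their genes overlap by 14 bases on opposite strands, and since the strand setting of the counting is not given in the sources used here, their reads cannot be told apart there. mt-Nd4l, a small complex I subunit (9877 to 10173), had a median of 367, mt-Atp8, a small ATP synthase subunit (7766 to 7969), 274, and mt-Nd3, another small complex I subunit (9459 to 9806), 219. mt-Atp8 and mt-Nd4l share 43 and 7 bases with mt-Atp6 and mt-Nd4 on the same strand, on which they are known to form joint mRNAs, so the low counts of both small genes depend on how shared reads were counted.

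**Figure D2:**
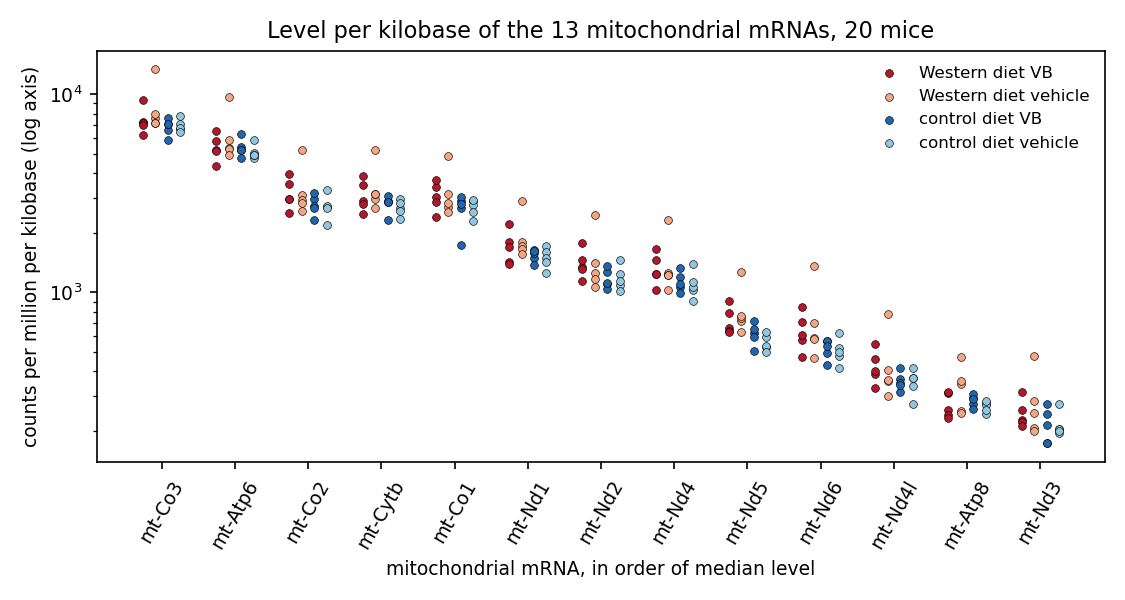
CPM per kilobase of gene (unscaled totals, log axis) for each of the 13 mitochondrial mRNAs, ordered by median, with 1 point per mouse and colours for the 4 groups. mt-Co3 is highest in 20 of 20 mice, and Western diet vehicle mouse 4 gives the highest point of every mRNA.

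The last place of mt-Nd3 rested on the split with its nuclear copy. Over all mice mt-Nd3 held 33555 counts and Gm28438 held 91520, so the pseudogene row took 71.8% ± 2.2 of the pair in Western diet VB mice, against 73.1% ± 2.3 in Western diet vehicle mice (SD, n = 5 each). It took 73.7% ± 3.7 in control diet VB mice, against 74.4% ± 1.7 in control diet vehicle mice. With both rows summed, the median rose to 813 CPM per kilobase of mt-Nd3, which is above the medians of mt-Nd5 and mt-Nd6. For mt-Co1, Gm29216 held 828577 counts against 1802444, and the sum had a median of 4152. The other 5 copies held few or no counts: Gm28437, a copy of mt-Co3, held 8515 and Gm10925, a copy of mt-Atp6, held 727, while Gm28661, Gm10222 and Gm28439 were at 0 in all lane files.

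The same library also split differently on its 2 lanes. The ratio of lane 1 to lane 2 in CPM was 0.91 to 1.11 over the other 12 mRNAs and 20 mice, but 0.49 to 1.42 for mt-Nd3. In Western diet VB mice the mt-Nd3 ratio was 1.03 to 1.30, against 0.49 to 1.19 in Western diet vehicle mice. It was 0.65 to 0.91 in control diet VB mice, against 1.03 to 1.42 in control diet vehicle mice. Thus mt-Nd3 was higher on lane 1 in all Western diet VB and all control diet vehicle mice, and lower on lane 1 in all control diet VB mice. The sum of mt-Nd3 and Gm28438 differed little, with ratios of 0.95 to 1.02, and both rows moved in opposite directions between lanes in 18 of 20 mice. The count of mt-Nd3 alone is uncertain, and its diet change is given below beside that of the summed pair.

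**Figure D3:**
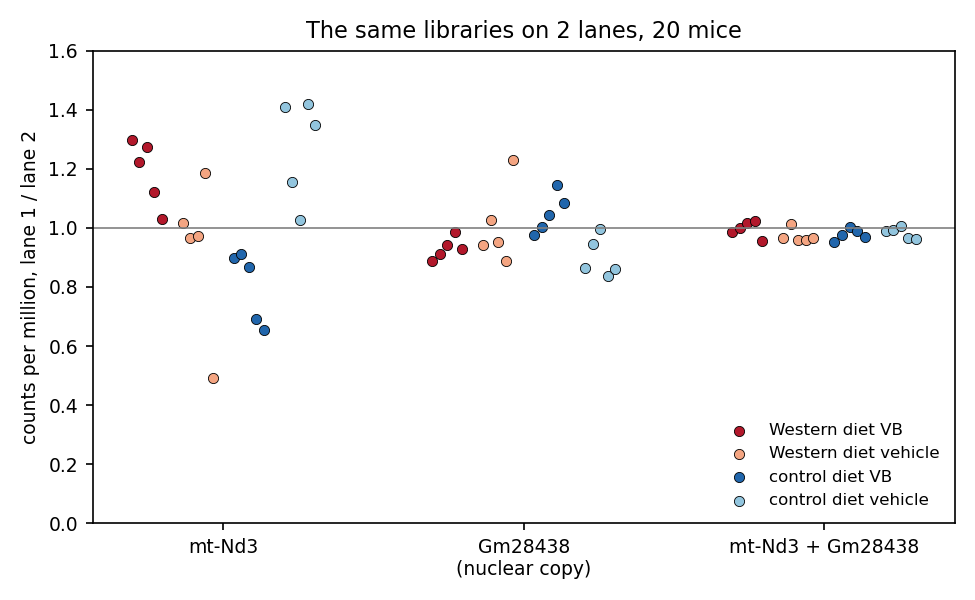
Ratio of CPM on lane 1 to lane 2 for mt-Nd3, its nuclear copy Gm28438 and their sum, with 1 point per mouse in 4 group colours. Ratios of mt-Nd3 spread from 0.49 to 1.42, while those of the sum stay between 0.95 and 1.02.

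On the Western diet, no mitochondrial mRNA passed the test between VB and vehicle mice. In edgeR's quasi-likelihood test 0 of 13 passed an adjusted p of 0.05, while 7.19% of all 12616 genes tested passed. At an unadjusted p under 0.05 it was 0 of 13, beside 20.3% of all genes, and 0 of 13 had groups that did not overlap, beside 5.56% of all genes. DESeq2 and limma-voom with quality weights also called 0 of 13. In edgeR the log2 changes ran from -0.24 to 0.00 with a median of -0.10, against a median of -0.02 over all genes tested, and 12 of 13 were negative. In limma-voom, which weights mice by quality, they went the other way on the same 20 mice, with a median of 0.12 and 12 of 13 positive. Standard errors were 0.17 to 0.26, so changes of this size lie within the error between mice. The most negative was mt-Atp8, with 58.5, 54.6, 63.6, 71.4 and 52.8 CPM in Western diet VB mice, against 50.1, 70.7, 71.1, 117.5 and 46.3 CPM in Western diet vehicle mice. The groups overlapped, and the log2 change was -0.24 ± 0.17 (SE, adjusted p = 0.48 in edgeR).

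The sign of this comparison in edgeR also turned with 1 mouse. Western diet vehicle mouse 4 had the highest level of all 13 mRNAs among the 20 mice. On scaled libraries its levels were between 1.97 times (mt-Atp8) and 2.92 times (mt-Nd6) the mean of the other 4 mice of its group. Its TMM factor was the lowest of all mice, at 0.823. Without it, all 13 log2 changes of VB on the Western diet were positive, with a median of 0.25, and mt-Nd4l was called at 0.43 ± 0.14 (SE, adjusted p = 0.049 in edgeR). In that fit 9.62% of all genes tested passed, so 1 of 13 lies near the background. No direction of the VB difference on the Western diet thus held over the fits and with and without this mouse.

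mt-Nd4l shows this in its values. It had 130.3, 133.7, 137.8, 181.5 and 108.9 CPM in Western diet VB mice. Western diet vehicle mice had 117.8, 106.5, 104.5, 280.2 and 82.5 CPM, so 4 of the 5 lay below 4 of the 5 VB mice and the fifth lay above all of them. mt-Nd2 had the same shape, with 1578, 1522, 1519, 2063 and 1322 CPM in Western diet VB mice, against 1424, 1305, 1177, 3110 and 1018 CPM in Western diet vehicle mice.

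The mouse also differed from its group in nuclear genes. Summed over CPM on unscaled totals, markers of Kupffer cells, the liver's macrophages, came to 50.8 in mouse 4 and 121.7 to 304.7 in the other 4 mice, with all 5 markers of the list in the table. Endothelial markers came to 72.0 against 81.0 to 163.3, stellate markers to 135.9 against 143.1 to 198.3, cholangiocyte markers to 60.1 against 31.5 to 45.2, and hepatocyte markers to 46412 against 37031 to 40901. Nuclear subunits of the respiratory complexes did not all run one way: those of complex I came to 6016 in mouse 4 and 4188 to 4991 in the others, complex III to 3212 against 2351 to 2683, and complex IV to 4828 against 2828 to 3717. Complex II subunits were lower in mouse 4, at 1122 against 1371 to 1422, and complex V lay within the range, at 5355 against 4954 to 5361. Genes of mitochondrial DNA transcription and maintenance were also lower, at 349.7 against 458.7 to 522.4. Those of mitochondrial RNA processing and stability were higher, at 1130 against 1026 to 1076. Those of the mitochondrial ribosome were higher as well, at 3272 against 2641 to 2958. Erythroid markers were lower, at 1185 against 1743 to 2680. The part of this cell or library makeup in the mitochondrial levels of the mouse was not tested.

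On the control diet, again no mitochondrial mRNA passed between VB and vehicle mice: 0 of 13 were called in edgeR, while 0.151% of all genes tested were called, and DESeq2 and limma-voom also called 0. The unadjusted p was under 0.05 for 0 of 13, beside 10.7% of all genes, and 0 of 13 had groups that did not overlap, beside 3.88% of all genes. Log2 changes ran from -0.11 to 0.08 with a median of -0.04, against 0.00 over all genes. mt-Co1 had the most negative fitted change, at -0.11 ± 0.20 (SE, adjusted p = 0.89). Its levels were 4157, 3771, 2441, 4351 and 4098 CPM in control diet VB mice, against 4456, 4087, 3878, 4384 and 3469 CPM in control diet vehicle mice. The low value of mouse 3 in the VB group set the sign: without that mouse the change was 0.01. In that mouse mt-Co1 made up 13.5% of the mitochondrial counts, against 17 to 18% in the other 4 mice of the group. With its nuclear copy row added, mt-Co1 changed by -0.19 ± 0.21 over all mice (SE, adjusted p = 0.79 in edgeR).

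The VB changes on the 2 diets were not shown to differ for any mitochondrial mRNA. The test of the difference called 0 of 13 in edgeR and 0 in DESeq2 and limma-voom, while 7.64% of all genes tested passed in edgeR. At an unadjusted p under 0.05 it was 0 of 13, beside 20.6% of all genes. The differences of log2 changes, Western minus control diet, ran from -0.27 for mt-Atp8 to 0.11 for mt-Co1 in edgeR, with a median of -0.07, 4 of 13 positive and standard errors of 0.24 to 0.37. In limma-voom their median was 0.16 with 12 of 13 positive. Without Western diet vehicle mouse 4 the edgeR median was 0.32, again with 0 of 13 called, and 4 of 13 had an unadjusted p under 0.05, beside 27.8% of all genes in that fit.

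**Figure D4:**
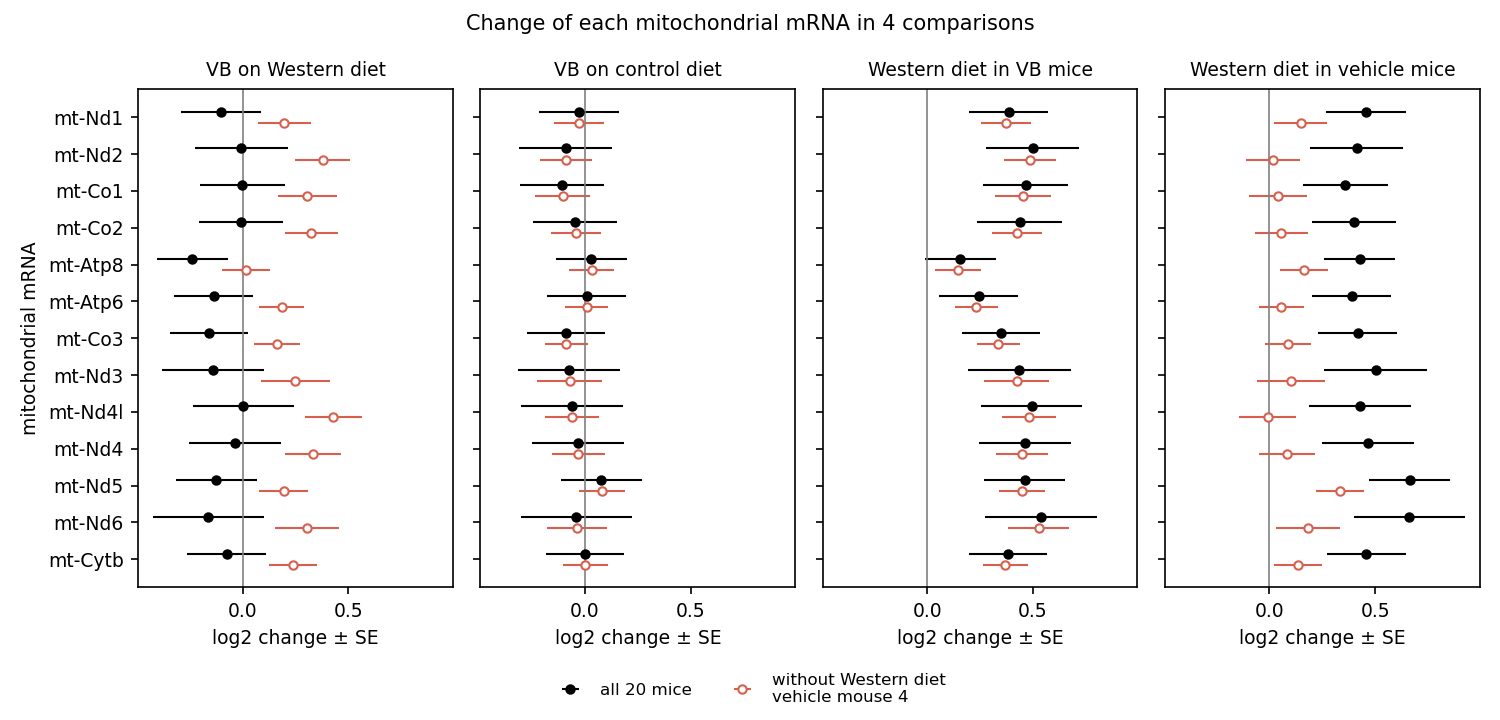
Log2 change with SE of each mitochondrial mRNA, in gene order, in 4 comparisons, with all 20 mice (filled) and without Western diet vehicle mouse 4 (open). Leaving out the mouse turns the VB changes on the Western diet positive and moves the diet changes in vehicle mice toward 0, and the diet changes in VB mice hardly move.

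Between the diets all 13 fitted log2 changes were positive in both treatments, Western over control, but few single mRNAs passed the test. In vehicle mice, Western diet against control diet, 1 of 13 was called higher and 0 lower in edgeR, while 16.5% of all genes tested passed and 8.92% were called higher, so the members' share lies below the background. The unadjusted p was under 0.05 for 8 of 13, beside 28.7% of all genes, and 0 of 13 had groups that did not overlap, beside 12.2% of all genes. With limma-voom 2 of 13 had an unadjusted p under 0.05, and in the fit of only these 10 mice 3 of 13. The median log2 change was 0.43 in edgeR, against 0.02 over all genes tested, and 0.20 in limma-voom. The called mRNA was mt-Nd5, with 1277, 1362, 1350, 2818 and 1064 CPM in Western diet vehicle mice, against 1077, 922, 962, 1109 and 899 CPM in control diet vehicle mice. Mouse 5 on the Western diet lay within the control diet range, and the other 4 lay above it. The log2 change was 0.66 ± 0.19 (SE, adjusted p = 0.019), which is 1.58-fold.

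mt-Nd5 was called in 32 of 33 alternative settings, with adjusted p of 0.0066 to 0.066, and missed the threshold in the fit of only these 10 mice. Without Western diet vehicle mouse 4 its log2 change fell to 0.33 ± 0.12 (SE, adjusted p = 0.045), and the median of the 13 mRNAs fell to 0.09. The light-strand mRNA mt-Nd6 had a similar fitted change with a larger error, 0.66 ± 0.26 (SE, adjusted p = 0.098). It had 354.4, 305.8, 293.7, 860.0 and 223.2 CPM in Western diet vehicle mice, against 320.6, 236.4, 267.5, 251.1 and 210.9 CPM in control diet vehicle mice. The groups overlapped, and without mouse 4 its change was 0.18 ± 0.15. With nuclear copy rows added, the diet change in vehicle mice was 0.31 ± 0.21 for mt-Co1 and 0.44 ± 0.22 for mt-Nd3. The rows alone gave 0.36 ± 0.20 and 0.50 ± 0.24 (SE, adjusted p from 0.18 to 0.38 in edgeR).

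In VB mice, 0 of 13 mRNAs were called between the diets in edgeR, while 6.44% of all genes tested passed. At an unadjusted p under 0.05 it was 5 of 13, beside 21.6% of all genes. DESeq2 also called 0, and limma-voom with quality weights called 8, all higher on the Western diet, beside 11.3% of all genes. All 13 log2 changes were positive, from 0.16 for mt-Atp8 to 0.54 for mt-Nd6, with a median of 0.44 against 0.00 over all genes. Here the groups did not overlap for 2 of 13 mRNAs, both higher on the Western diet, beside 9.43% of all genes tested that did not overlap in either direction. mt-Nd2 had 1578, 1522, 1519, 2063 and 1322 CPM in Western diet VB mice, against 1229, 1043, 979.5, 1311 and 1102 CPM in control diet VB mice. mt-Nd5 had 1358, 1299, 1441, 1843 and 1283 CPM in Western diet VB mice, against 1058, 996, 839, 1105 and 1249 CPM in control diet VB mice.

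The log2 changes were 0.50 ± 0.22 for mt-Nd2 and 0.46 ± 0.19 for mt-Nd5 (SE, adjusted p = 0.19 and 0.15). All groups share 1 estimate of the spread in this fit, Western diet vehicle mouse 4 included. Without that mouse, which belongs to neither group, the changes hardly moved (median 0.42), with standard errors of 0.10 to 0.15. Then 10 of 13 mRNAs passed, beside 10.97% of all genes. The 3 that did not pass were mt-Atp6, mt-Atp8 and mt-Nd3. That mouse was singled out for its levels of these same mRNAs, so leaving it out lowers their spread in particular. The rise in calls thus follows in part from the choice of mouse, and the share of all genes is no like background for it. In a fit of only the 10 mice compared, 6 of 13 passed, beside 9.06% of all genes.

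The mRNAs of complexes III and IV also had positive fitted changes in VB mice, though their groups overlapped. mt-Co1 was 4141 to 6377 CPM in Western diet VB mice, against 2441 to 4351 CPM in control diet VB mice, and its log2 change was 0.47 ± 0.20. mt-Cytb was 3177 to 4961 CPM in Western diet VB mice, against 2426 to 3279 CPM in control diet VB mice, with a change of 0.38 ± 0.19. The smallest fitted changes were those of the complex V mRNAs, with 0.24 ± 0.19 for mt-Atp6 and 0.16 ± 0.17 for mt-Atp8. With nuclear copy rows added, the log2 change was 0.48 ± 0.21 for mt-Co1 and 0.35 ± 0.22 for mt-Nd3, against 0.44 ± 0.24 for the mt-Nd3 row alone (SE, adjusted p from 0.17 to 0.37 in edgeR).

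Averaged over both treatments, a comparison added after seeing the data, the Western diet gave log2 changes of 0.29 to 0.60 in the 13 mRNAs, with a median of 0.42. Of these, 9 of 13 were called higher and 0 lower, while 16.9% of all genes tested passed and 9.12% were called higher. All 13 of 13 had an unadjusted p under 0.05, beside 30.1% of all genes. mt-Nd5 changed by 0.56 ± 0.13 (SE, adjusted p = 0.0056) and was called in all 32 alternative settings run for this comparison. Most other calls lay close to the threshold, with adjusted p of 0.031 to 0.0496, and moved with the setting. The mt-Co1 row was called at 0.41 ± 0.14 (SE, adjusted p = 0.048 in edgeR). With its nuclear copy row added mt-Co1 no longer passed, at 0.40 ± 0.15 (SE, adjusted p = 0.078 in edgeR). Leaving out single mice gave 1 to 13 called. Without Western diet vehicle mouse 4 it was 5, beside 16.99% of all genes, with a median of 0.25. The comparison rests on the same 20 mice as those above and is no independent evidence for them.

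Other differences ran along with the diet, and some of them also with VB. The form of the library names also changes with the diet, so diet and any batch of handling tied to those names cannot be told apart. Levels of clock genes differed as well, and the labels give no time of collection. Arntl, which encodes the clock activator BMAL1, had 7.59 ± 4.52 CPM in VB mice on the Western diet, against 13.6 ± 2.2 in VB mice on the control diet (SD, n = 5 each). It had 2.08 ± 1.11 CPM in vehicle mice on the Western diet, against 20.5 ± 4.1 in vehicle mice on the control diet. Stellate cell markers, with 5 of 5 tested, summed to 59.0 to 152.4 CPM on unscaled totals in Western diet VB mice, against 189.5 to 215.5 in control diet VB mice, and 2 of 5 fell in edgeR. They summed to 135.9 to 198.3 in Western diet vehicle mice, against 148.0 to 216.9 in control diet vehicle mice, and 1 of 5 fell. Of 5 adipocyte markers 1 was tested, Cfd, which rose with the diet in both treatments and fell with VB on the Western diet (log2 change -3.20). The adipocyte sum was 4.57 to 43.6 in Western diet VB mice, against 0.24 to 3.19 in control diet VB mice, and 32.7 to 243.5 in Western diet vehicle mice, against 0.42 to 1.97 in control diet vehicle mice, while Adipoq and Lep had medians of 0. Single markers of other types also passed, each 1 of 5 on its list. Sox9, a cholangiocyte marker, fell with the diet in vehicle mice (-1.11) and rose with VB on the Western diet (0.94). Stab2, an endothelial marker, rose with the diet in vehicle mice (0.59). Alb, a hepatocyte marker, fell with it in VB mice (-0.52), where the list median was -0.07. Of all genes, 16.5% passed with the diet in vehicle mice, 6.44% with it in VB mice and 7.19% with VB on the Western diet. Of 5 erythroid markers 0 passed with the diet in VB mice, but 4 had an unadjusted p under 0.05, beside 21.6% of all genes. Their list median was 1.02 there and 0.54 in vehicle mice. The parts of the clock difference and of the cell markers in the mitochondrial levels were not tested.

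Shares within the mitochondrial pool are free of library scaling, since total and scaling factor cancel. In vehicle mice mt-Nd5 made up 5.00, 5.07, 5.35, 5.02 and 4.92% of the 13 mRNAs' counts on the Western diet, against 4.02, 4.09, 4.26, 4.79 and 4.38% on the control diet. The groups did not overlap, and mouse 4, at 5.02%, was in the middle of its group. In VB mice mt-Nd5 made up 4.61 to 5.33% on the Western diet and 4.38 to 5.36% on the control diet, which overlap. With nuclear copy rows added to the pool, vehicle mice still did not overlap, at 4.58 to 4.92% on the Western diet and 3.64 to 4.36% on the control diet.

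mt-Atp6 took a smaller part of the pool on the Western diet in VB mice, at 13.78, 13.97, 14.11, 13.39 and 13.61%, against 14.94, 14.71, 16.38, 15.84 and 14.48% on the control diet. These groups did not overlap, also with copy rows added (12.3 to 12.8% against 13.4 to 15.3%). In vehicle mice mt-Atp6 took 13.91 to 14.96% on the Western diet and 14.05 to 15.99% on the control diet, which overlap. Without copy rows, no share of the other 11 mRNAs separated the groups in any of the 4 pairwise comparisons. With them, that of mt-Atp8 also did, at 0.176 to 0.205% in Western diet VB mice, against 0.207 to 0.247% in control diet VB mice. These shares were given no test, and they are described because they did not overlap, out of 13 shares in 4 comparisons. The counts of mt-Nd6, the light-strand mRNA, were 21.3 to 27.2% of those of mt-Nd5 in Western diet VB mice, against 20.98 to 30.5% in Western diet vehicle mice. They were 21.2 to 27.2% in control diet VB mice, against 22.6 to 29.8% in control diet vehicle mice, and the groups overlapped.

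**Figure D5:**
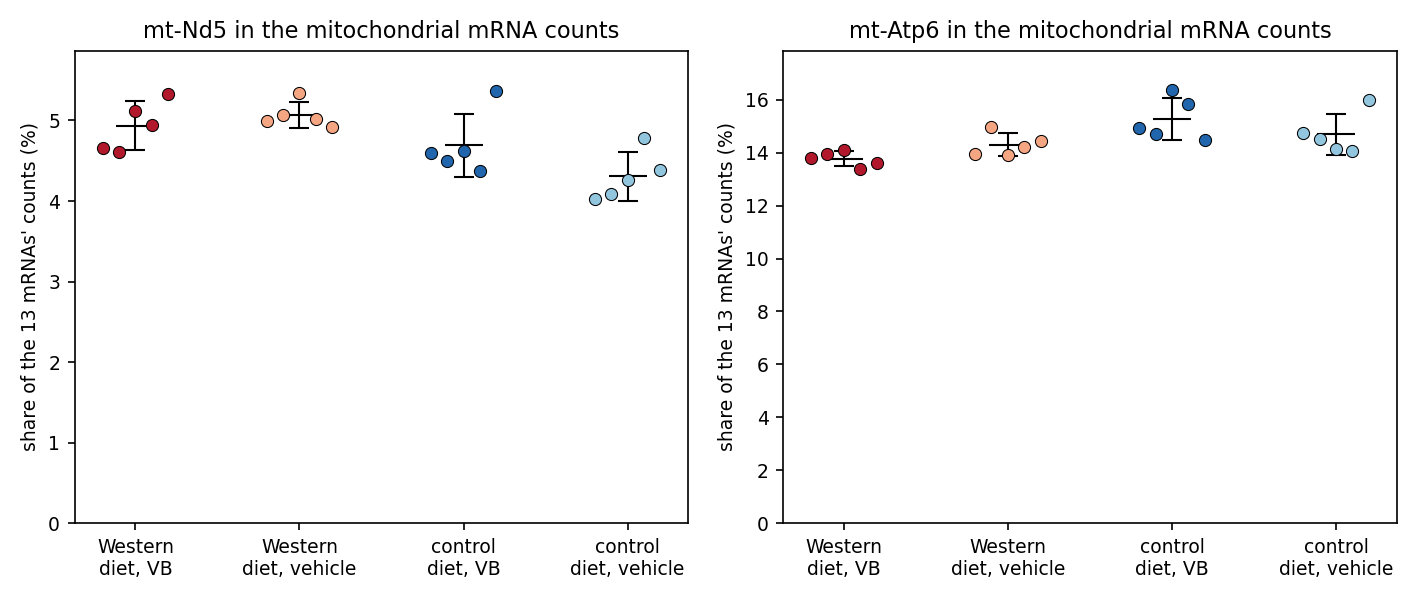
Share of mt-Nd5 (left) and mt-Atp6 (right) in the counts of the 13 mitochondrial mRNAs (percent), by mouse, with mean and SD of 5 mice. mt-Nd5 is 4.92 to 5.35% in Western diet vehicle mice and 4.02 to 4.79% in control diet vehicle mice, and mt-Atp6 is 13.4 to 14.1% in Western diet VB mice and 14.5 to 16.4% in control diet VB mice.

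Nuclear genes of the same respiratory complexes gave few calls in any comparison. Of 76 nuclear subunits of complexes I to V, 0 were called in edgeR in either VB comparison, either diet comparison or the difference of VB effects. Over all genes tested, 0.151 to 16.5% were called in these comparisons. At an unadjusted p under 0.05 there were 0 to 2 of 76 in each, beside 10.7 to 28.7% of all genes. DESeq2 called 0 in each, and limma-voom called 1 in either diet comparison and in the difference. In the averaged diet comparison 1 of 76 fell, Atpif1, which encodes an inhibitor of ATP synthase, beside 16.9% of all genes called. Without Western diet vehicle mouse 4, 1 rose and 1 fell with VB on the Western diet. In that fit 1 fell with the Western diet in VB mice and 4 fell with it in vehicle mice. For the difference, 4 had a higher and 1 a lower VB effect on the Western diet. Over all genes, 1225, 1397, 2411 and 1702 of 12732 passed in these comparisons, in the same order. Median log2 changes of the nuclear complex I subunits were 0.14 in VB mice and 0.07 in vehicle mice for the diet, against 0.00 and 0.02 over all genes tested.

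Among 26 nuclear genes of mitochondrial DNA transcription and maintenance, 3 rose and 1 fell with the Western diet in vehicle mice, a share near the 16.5% of all genes called, with a list median of 0.09. Esrra, a nuclear receptor that activates respiratory genes, had 20.8 ± 3.0 CPM in Western diet vehicle mice and 12.1 ± 0.6 in control diet vehicle mice (SD, n = 5 each), a log2 change of 0.78 ± 0.12 (SE, adjusted p = 5.00e-05). Mterf2, a mitochondrial DNA-binding protein of the MTERF family, changed by 1.06 ± 0.25 and Mterf4, which acts in mitochondrial ribosome assembly, by 0.35 ± 0.11. Ppargc1a, a coactivator of mitochondrial biogenesis, fell to 6.06 ± 1.20 CPM in Western diet vehicle mice, against 10.9 ± 2.8 in control diet vehicle mice, with a log2 change of -0.85 ± 0.28 (SE, adjusted p = 0.043). The activator and the coactivator, which are known to work together, thus moved in opposite directions in RNA.

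In VB mice the diet called 1 of these 26 genes, again Esrra, with 16.9 ± 2.7 CPM on the Western diet and 12.3 ± 1.2 on the control diet (log2 change 0.46 ± 0.12). Ppargc1a had 7.26 ± 3.24 CPM in Western diet VB mice, against 11.5 ± 4.3 in control diet VB mice, which did not pass (adjusted p = 0.15). VB on the Western diet called 1 higher, Gabpb1, a subunit of the respiratory gene activator GABP, and 1 lower, Mterf2, which had 2.38 ± 0.78 CPM in Western diet VB mice, against 4.22 ± 0.98 in Western diet vehicle mice. VB on the control diet called 0 of 26 in edgeR (1 at an unadjusted p under 0.05) and 1 in DESeq2 and limma-voom. The difference of VB effects called 0 in edgeR (3 unadjusted), 1 in DESeq2 and 3 in limma-voom.

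The core of the transcription machinery did not pass in any of these comparisons. Tfam, which packages mitochondrial DNA and starts its transcription, had 25.5 ± 2.9 CPM in Western diet VB mice, against 27.0 ± 2.8 in Western diet vehicle mice (SD, n = 5 each). It had 26.6 ± 1.8 CPM in control diet VB mice, against 25.1 ± 1.1 in control diet vehicle mice. Polrmt, the mitochondrial RNA polymerase, lay between 13.5 and 31.2 CPM over all mice, with adjusted p of 0.46 or more in the 4 pairwise comparisons. Lrpprc, which stabilises mitochondrial mRNAs, had 78.2 ± 5.2 CPM in Western diet VB mice, against 67.5 ± 11.8 in Western diet vehicle mice. It had 72.3 ± 4.0 CPM in control diet VB mice, against 61.8 ± 6.9 in control diet vehicle mice. Its VB changes of 0.21 and 0.23 on the Western and the control diet did not pass (adjusted p = 0.26 and 0.44).

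Of 29 genes of mitochondrial RNA processing and stability, 3 rose and 2 fell with the Western diet in vehicle mice, again near the 16.5% of all genes called, with a list median of 0.04. In VB mice the diet called 0 in edgeR (5 at an unadjusted p under 0.05), 1 in DESeq2 and 2 in limma-voom. Hsd17b10, a subunit of the enzyme that cuts tRNAs out of the precursors, had 474.1 ± 149.9 CPM in Western diet vehicle mice and 282.6 ± 34.04 in control diet vehicle mice, a change of 0.75 ± 0.18. Ptcd1, a pentatricopeptide repeat protein of mitochondria, changed by 0.43 ± 0.11. Among the genes that fell were 1110008L16Rik, at -0.42 ± 0.11, and Ptcd2, at -0.28 ± 0.08. VB on the Western diet moved 2 of these the other way: Hsd17b10 fell, at -0.61 ± 0.18, and 1110008L16Rik rose, at 0.44 ± 0.11. These 2 VB and diet comparisons share the Western diet vehicle mice. Without mouse 4 of that group, 2 of the 29 genes rose and 0 fell with VB on the Western diet, beside 1225 of 12732 genes. VB on the control diet called 0 in edgeR (4 at an unadjusted p under 0.05), DESeq2 and limma-voom. The difference of VB effects called 3 of 29, all higher on the Western diet, beside 7.64% of all genes: 1110008L16Rik at 0.57 ± 0.16, Rpusd3 at 0.46 ± 0.13 and Ptcd2 at 0.38 ± 0.12.

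Genes for proteins of the mitochondrial ribosome, which translates the 13 mRNAs, gave few calls in edgeR. Of 78 tested, 4 rose and 0 fell with the Western diet in VB mice, a share near the 6.44% of all genes called, with a list median of 0.19. There DESeq2 called 5 and limma-voom 10, and 22 had an unadjusted p under 0.05 in edgeR, beside 21.6% of all genes. Without Western diet vehicle mouse 4, 13 rose and 0 fell, a larger share than the 10.97% of all genes that passed in that fit. Mrps18a rose by 0.35 ± 0.08 and Mrpl12 by 0.36 ± 0.10. In vehicle mice Mrpl45 rose with the diet, at 0.61 ± 0.13, and Mrps27 fell, at -0.39 ± 0.09, beside 16.5% of all genes called. Without mouse 4, 1 rose and 6 fell there, while 2411 of 12732 genes tested passed. With VB on the Western diet 1 rose and 1 fell, beside 7.19% of all genes. With VB on the control diet edgeR called 0 (7 at an unadjusted p under 0.05) and DESeq2 and limma-voom 0. The difference of VB effects called 0 in edgeR (6 unadjusted), 1 in DESeq2 and 6 in limma-voom. Without mouse 4, 12 of the 78 had a higher and 0 a lower VB effect on the Western diet, beside 1702 of 12732 genes.

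Checks of the tissue and of stress at collection stood as follows. Each of 5 hepatocyte markers was abundant, and their sum was 32369 to 42236 CPM on unscaled totals in Western diet VB mice, against 37031 to 46412 in Western diet vehicle mice. The sum was 48589 to 53185 in control diet VB mice, against 44147 to 50365 in control diet vehicle mice. In VB mice the markers thus took a smaller part of unscaled counts on the Western diet than on the control diet, without overlap. Of 5 skeletal muscle markers, muscle being another tissue rich in mitochondria, 4 had a median of 0. Of 6 immediate-early genes, which respond to stress at collection, 0 were called in edgeR, DESeq2 and limma-voom in the 4 pairwise comparisons. At an unadjusted p under 0.05 it was 3 of 6 for VB on the control diet, beside 10.7% of all genes. In the other pairwise comparisons it was 0 or 1 of 6. Their median log2 changes with VB were 0.50 on the Western and 0.40 on the control diet, against -0.02 and 0.00 over all genes. In the averaged diet comparison 1 of them, Egr1, fell, with a log2 change of -1.76 ± 0.53 (SE, adjusted p = 0.030 in edgeR). Summed counts per mouse ran from 16315342 to 24566686, and each mitochondrial mRNA held at least 844 counts in every mouse. The 2 lanes of a mouse still gave ratios of 0.91 to 1.11 for mt-Atp8 and 0.49 to 1.42 for mt-Nd3. Counting error of the small mRNAs was not set apart from the spread between mice.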

How the data were processed

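Counts were used as the authors deposited them: whole numbers of reads for each gene in 40 lane files of liver libraries, which were made with a TruSeq kit per the labels' protocols. The submitters' processing notes name GRCm38 as the build. Which aligner, counter, annotation and strand setting were used is not given in the sources used here. All columns were mapped. Lanes of a mouse differed little (chi-square per degree of freedom 1.33 to 1.49, over genes with 20 or more reads, against at least 17.7 between mice of a group) and were summed.

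Genes kept by filterByExpr (minimum count 10, minimum total 15) numbered 12616 and held 99.95% of counts. All 20 mice were fitted together in R 4.3.3 with edgeR 4.0.16 (TMM, robust quasi-likelihood), with group means and no block, and p-values were adjusted by Benjamini-Hochberg over all genes tested (threshold 0.05). DESeq2 1.42.0 and limma 3.58.1 were alternatives, beside other scaling, no filter, single lanes, the mouse number as a block and each mouse left out. Copy rows added to their gene were chosen after seeing the data. CPM in the text use TMM-scaled libraries unless said otherwise. The shares and pool shares got no test.

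The members, the gene lists and the tests were chosen with earlier results of these data known. The text names all 13 mRNAs, up to 4 called genes of a nuclear list with the smallest p per comparison, and Tfam, Polrmt, Ppargc1a and Lrpprc. Copies were found by aligning GENCODE M21 transcripts. On simulated counts for VB on the Western diet (12457 genes), 26 of 50 genes changed 1.5-fold and 46 of 50 changed 2-fold were recovered. The simulation gave all genes the same median dispersion and held no outlying mouse, so these rates do not describe the 13 mRNAs. P-values measure the spread between mice.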

Additional observations from a re-analysis of the deposited data

Results flagged for a closer look

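In Western diet vehicle mice, mouse 4 lay far above the other 4 in the mitochondrial share of counts (4.62%) and in the CPM of 12 of the 13 mRNAs. These were mt-Co3 (12722), mt-Co1 (9181), mt-Atp6 (7979), mt-Cytb (7293), mt-Co2 (4357), mt-Nd4 (3908), mt-Nd1 (3362), mt-Nd2 (3110), mt-Nd5 (2818), mt-Nd6 (860.0), mt-Nd4l (280.2) and mt-Nd3 (202.3 CPM). On unscaled totals, its sums with the nuclear copies were outlying for mt-Co1 (11406 CPM) and mt-Nd3 (618.2 CPM).

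In Western diet VB mice, mt-Nd5 stood apart in mouse 4 (1843 CPM), and mouse 3 was low in the part of mt-Co3 (19.5%) and mt-Nd1 (4.84%) in the mitochondrial counts. In control diet VB mice, mouse 3 was low in the part of mt-Co1 (13.5%), mouse 5 was high in that of mt-Nd5 (5.36%), and mouse 4 was high in the sum of mt-Nd3 and its copy (323.1 CPM on unscaled totals). In control diet vehicle mice, mouse 1 was high in mt-Atp6 (3951 CPM) and mt-Nd3 (94.1 CPM).

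These values came from a test of 116 sets of 5 mice, in which the gap of the outermost mouse exceeded 0.71 of the range in 23. Chance gives about 5% of such sets, and the sets are not independent, since 13 mRNAs share the same mice.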

How the results depend on the processing

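The diet changes kept their sign in nearly all values: 1 of 429 turned in VB mice (mt-Atp8, -0.077 without scaling factors) and 1 of 429 in vehicle mice, where mt-Nd4l ranged from -0.0077 without Western diet vehicle mouse 4 to 0.57 without mouse 5. VB changes were near 0, and 53 of 429 turned on the Western diet and 35 of 429 on the control diet. With limma-voom 12 of 13 were positive on the Western diet. Of those given in the text, mt-Nd5 on the Western diet turned to 0.073 with limma-voom and ranged from -0.24 to 0.19 with single mice left out, and mt-Atp8 ranged from -0.36 to 0.017; both positive values came without Western diet vehicle mouse 4. The difference of VB effects for mt-Nd5 turned to 0.0046 with limma-voom and ranged from -0.31 to 0.11, the positive value again without that mouse. mt-Co1 on the control diet ranged from -0.16 to 0.014, which came without control diet VB mouse 3. Without scaling factors the median of all genes moved to -0.23 for the diet in VB mice and -0.13 for VB on the Western diet. In that fit the 13 mRNAs had medians of 0.202 and -0.178, against 0.437 and -0.103 in the main fit. Relative to the median of all genes in the fit without scaling factors, they had medians of 0.44 and -0.05. TMM factors were 0.8873 to 0.9954 in Western diet VB mice, against 1.0538 to 1.0993 in control diet VB mice. The size of the diet change in VB mice thus depended on the scaling.

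Mitochondrial mRNAs called in VB mice between diets numbered 8 with limma-voom (11.3% of all genes passed) and 6 in the fit of only these groups (9.06%). With single mice left out they numbered 0 to 10. The count of 10 came without Western diet vehicle mouse 4, singled out by these same mRNAs, where 1397 of 12732 genes passed. In vehicle mice the count was 2 with DESeq2 (18.9% of all genes passed) and with lane 2 (15.1%). It was 0 in the fit of only these groups (13.2%). With single mice left out it was 1 to 4 (4 without Western diet vehicle mouse 5 and 2 without mouse 1), beside 1663 to 2411 genes called. For the averaged diet comparison it was 5 with RLE (16.8% of all genes passed), upper-quartile scaling (16.6%) or Mup rows out of library sizes (16.7%). Without scaling factors it was 2 (22.4%), and without a filter 1 (8.37%). With single mice left out it was 1 to 13, beside 1796 to 2274 genes called, and in 13 of those 20 fits it was 5 or fewer. With VB on the Western diet it was 0 to 1 with single mice left out, beside 605 to 1225 genes called.

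Genes called with VB on the Western diet fell to 464 in the fit of only these groups. With VB on the control diet, 19 genes became 29 with upper-quartile scaling, 38 without scaling, 30 with Mup rows out, 164 with DESeq2, 261 with limma-voom, 66 in the fit of only these groups, 36 with lane 2 and 6 to 66 with single mice left out. With the diet in VB mice they were 2601 without scaling, 1421 with limma-voom and 541 to 1397 with single mice left out, and for the difference of VB effects 1661 with limma-voom and 665 to 1702. The cause of these shifts was not tested. Without Mup rows the mean mitochondrial share was 3.36% in Western diet VB mice and 2.67% in control diet vehicle mice, and the diet difference in VB mice was 0.75 percentage points, against 0.27 with them; the 0.27 ran from 0.11 without Western diet VB mouse 4 to 0.40 without mouse 5.

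The mouse numbers were not used as pairs in the main fit. Deviations of 30 same-numbered pairs correlated at -0.07 to 0.38, with 7 over 0.1, which does not settle whether the numbers pair mice. With the number as a replicate block, genes called rose from 907 to 1067 for VB on the Western diet and from 19 to 65 on the control diet. They rose from 813 to 973 for the diet in VB mice and from 2083 to 2312 in vehicle mice. For the difference of VB effects they rose from 964 to 1146, and for the averaged diet comparison from 2130 to 2369. In the averaged diet comparison 11 mitochondrial mRNAs were called, against 9 without the block. Each of the 13 mRNAs held at least 844 counts in every mouse.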
